A study of Mus musculus with 15 samples.

Results

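Secretory progenitors (Sec-Pro) of the mouse intestinal crypt were described by the combinations of H3K4me2, H3K27ac and DNase I hypersensitive sites (DHS) found at the same places in their genome. Every H3K4me2 peak was classed as with or without an H3K27ac peak and with or without a DHS, where an overlap of at least 1 bp counted as with. H3K27ac peaks were classed by H3K4me2 and DHS, and DHS by H3K4me2 and H3K27ac, and there a peak of either Sec-Pro H3K4me2 library counted as H3K4me2. The 4 Sec-Pro lists held 262035 of the 778471 peaks in the 12 lists of the series, with 63293 H3K4me2 peaks from Rbpj-/- mice, 92279 H3K4me2 peaks from mice given dibenzazepine (DBZ), 74483 H3K27ac peaks and 31980 DHS. ATOH1 binding in Sec-Pro and H3K4me2 in mature cells were not used for the classes and were read afterwards.

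All mice were C57BL/6, and no age is given in the labels. Sec-Pro came from crypts in which Notch signalling was blocked, either by deletion of Rbpj, the gene of the DNA-binding partner of Notch, or by DBZ, a drug that inhibits Notch. Goblet cells (GOB) came from villi of Rbpj-/- mice. Enterocytes (ENT) came from villi, and enterocyte progenitors (Ent-Pro) from crypts, of Atoh1-/- mice, which form no secretory cells. Stem cells (ISC) were sorted for the green fluorescent protein of Lgr5-eGFP-Cre mice. ATOH1 was precipitated with an antibody against the FLAG tag. The labels do not say which of the Sec-Pro preparations served for H3K27ac, DHS and ATOH1, nor do they give the Cre driver of either deletion or the number of animals. GOB and ENT differ in genotype as well as in lineage, and these cannot be told apart.

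In the crypt, cells that signal through Notch ligands hold Notch active in their neighbours, a process called lateral inhibition. Cells that escape Notch make ATOH1, a transcription factor required for goblet, Paneth and enteroendocrine fates, and cells with active Notch become absorptive. H3K4me2 lies on nucleosomes at promoters and enhancers whether or not these are in use, H3K27ac lies on nucleosomes at active ones, and a DHS is a short stretch where nucleosomes are displaced and factors bind.

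Each assay had 1 Sec-Pro library, except H3K4me2 with its 2 differently prepared libraries, so no test between conditions was possible and sites are not replicates. Values of both H3K4me2 libraries are given side by side, Rbpj-/- before DBZ. Their difference joins the way Notch was blocked, the preparation and the length of the list, which cannot be told apart. It is therefore no estimate of the error between preparations. The 95% intervals cover counting error only. Depth is unknown, since no read numbers accompany the lists, and a site without a peak may still carry the feature. The shortest peak was 200 bp in the Rbpj-/- H3K4me2, H3K27ac and DHS lists and 146 bp in the DBZ, GOB and ENT lists. The labels state a sort for stem cells only, and how many other crypt cells the Sec-Pro preparations held is unknown. In such bulk chromatin, fewer cells with a mark and a weaker mark per cell cannot be told apart. The files use mouse build mm9, for which no gene annotation was at hand, so the identity of the cells was not checked against marker genes and no gene is named.

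Most H3K4me2 peaks of Sec-Pro had H3K27ac, and fewer than 4 in 10 had a DHS. H3K27ac without a DHS was the combination of 29200 of the Rbpj-/- peaks (46.1%, 95% interval 45.7 to 46.5%) and of 34759 of the DBZ peaks (37.7%, 37.4 to 38.0%). Both H3K27ac and a DHS were found at 17489 Rbpj-/- peaks (27.6%, 27.3 to 28.0%) and at 18618 DBZ peaks (20.2%, 19.9 to 20.4%). A DHS without H3K27ac was uncommon, with 4691 Rbpj-/- peaks (7.41%) and 6354 DBZ peaks (6.89%). Neither feature was found at 11913 Rbpj-/- peaks (18.8%, 18.5 to 19.1%) and at 32548 DBZ peaks (35.3%, 35.0 to 35.6%). The share of peaks with neither was the value that differed most between the libraries. After the data were seen, the DBZ list was reduced by score to the length of the Rbpj-/- list, and then 24.1% of its peaks had neither feature and 28.8% had both.

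**Figure D1:**
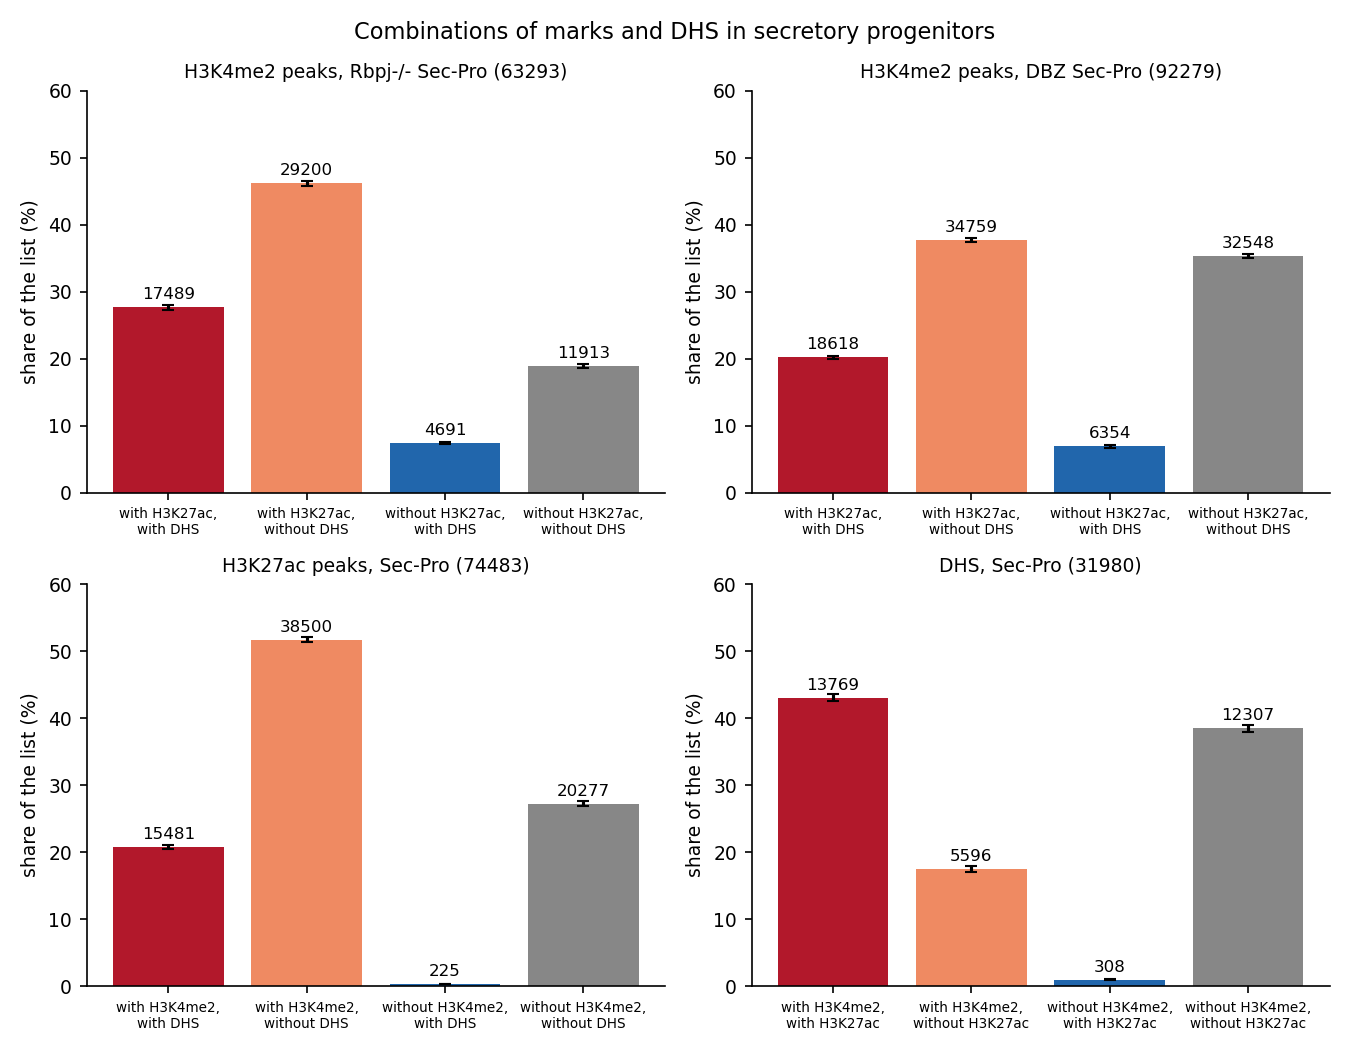
Share of each list in percent (bars, with 95% counting intervals) for every combination, with the number of peaks above the bar, for both H3K4me2 libraries, H3K27ac peaks and DHS of Sec-Pro. H3K4me2 or H3K27ac peaks with the other mark and no DHS form the tallest bar in 3 of the 4 lists, whereas DHS had both marks or neither in 43.1% and 38.5% of cases.

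The size of the doubly positive combination depended on how overlap was counted. It was 27.6% and 20.2% with 1 bp of overlap, 13.5% and 10.1% when 50% of the shorter peak had to be covered, and 11.7% and 7.85% when only the central 500 bp of the H3K4me2 and H3K27ac peaks were used. Among the upper 50% of H3K4me2 peaks by score it was 51.6% and 38.3%. Of the peaks with H3K27ac and without a DHS, 5.93% and 4.54% lay within 500 bp of a DHS, and these are the peaks just outside the limit. Their median distance to the nearest DHS was 10499 bp and 11286 bp.

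The combinations differed in width and in score. The score is a number the authors gave for each peak without naming it, used here only as a percentile of its own list. Peaks with H3K27ac and a DHS had a median width of 1325 bp in the Rbpj-/- list and 1424.5 bp in the DBZ list, and their median score percentile was 83.6 and 87.9. Peaks with a DHS and no H3K27ac followed, with 721 and 647.5 bp and percentiles of 59.8 and 65.7. Peaks with H3K27ac and no DHS measured 498 and 520 bp, at percentiles of 40.3 and 48.5. Peaks with neither measured 316 and 270 bp, at percentiles of 24.1 and 29.2. The order of the 4 combinations was the same for width and score in both libraries. The quartiles of width of neighbouring combinations overlapped. Those of score overlapped too, except in DBZ, where they ran from 79.6 to 94.3 with both features and from 46.0 to 77.8 with a DHS alone. Peaks with both features and peaks with neither did not overlap in their quartiles: the lower quartile of width was 855 and 904 bp in peaks with both, and the upper quartile 474 and 468 bp in peaks with neither.

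**Figure D2:**
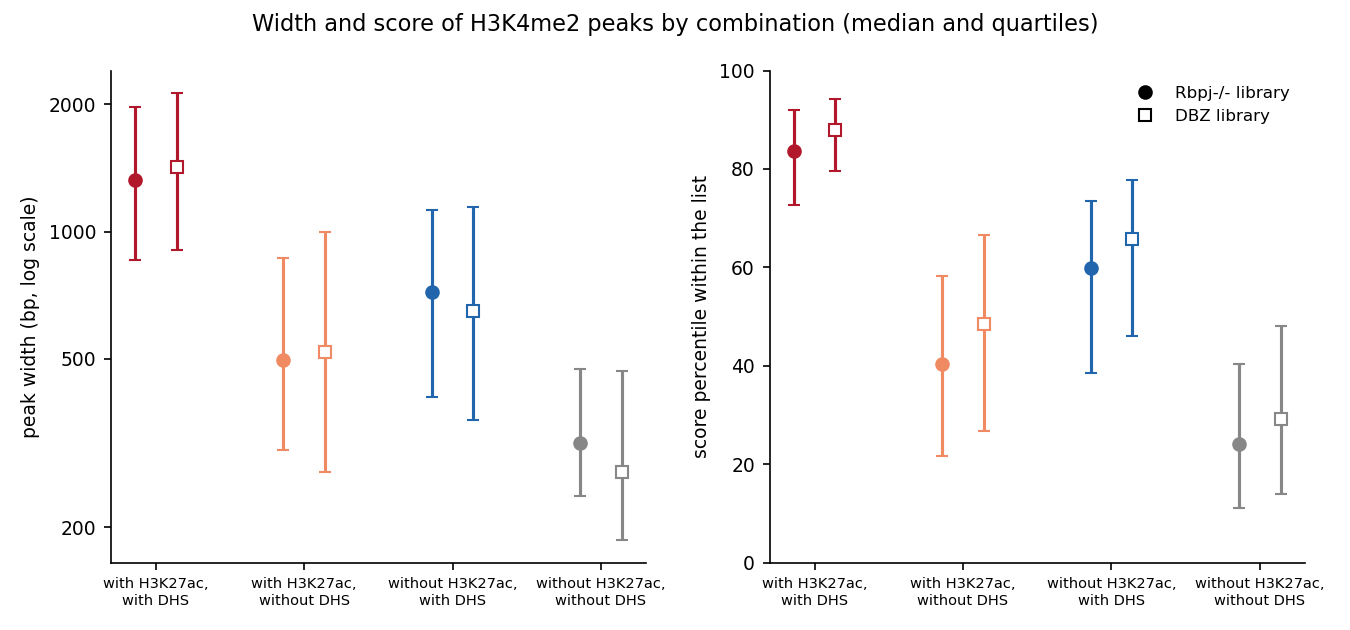
Median (symbol) and quartiles (bars) of peak width in bp on a log scale and of score percentile within the list, for the 4 combinations of Sec-Pro H3K4me2 peaks, with filled circles for the Rbpj-/- library and open squares for the DBZ library. Peaks with H3K27ac and DHS reach median percentiles of 83.6 and 87.9, and peaks with neither lie at 24.1 and 29.2.

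The doubly positive peaks covered more of the marked genome than their number shows. They made up 48.9% of the Rbpj-/- H3K4me2 length (27.8 Mb) and 42.0% of the DBZ length (31.5 Mb). Of the doubly positive peaks, 31.4% and 42.0% were in the top decile of their list by score. Only 0.176% and 0.237% of peaks with neither feature reached that decile. The partner peaks ranked alike. The highest-scoring H3K27ac peak at an H3K4me2 peak had a median percentile of 88.5 and 88.2 where a DHS was present and of 69.1 and 64.4 where none was. The highest-scoring DHS at an H3K4me2 peak had a median percentile of 82.5 and 82.4 where H3K27ac was present and of 62.2 and 61.1 where it was not. A wider H3K4me2 peak can overlap more partners to take the highest from, and the part of width in this was not tested.

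The class of a site was mostly shared by the 2 H3K4me2 preparations where both had a peak. Each peak was compared with the highest-scoring peak of the other library that overlapped it. Of the Rbpj-/- peaks, 93.5% overlapped a DBZ peak, and 92.1% of those matched it in combination. Of the DBZ peaks, 62.4% overlapped an Rbpj-/- peak, and 93.1% of those matched in combination. The match was 98.4% of Rbpj-/- and 96.2% of DBZ peaks with both features, and 78.4% and 85.0% of those with neither. Because both libraries were classed against the same H3K27ac and DHS lists, the match is not independent of those lists. The combinations differed in how often the other library had a peak at all. DBZ peaks with both features overlapped an Rbpj-/- peak in 97.5% of cases, those with a DHS alone in 80.3%, those with H3K27ac alone in 71.4% and those with neither in 29.1%.

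Positions of the highest-scoring sites are given for mm9, counted from 1. They are the DBZ peaks with the highest value of the lower score percentile of the 2 libraries. With H3K27ac and a DHS, these were chrX:166434947-166435951, chr19:5388844-5391214 and chr19:45148502-45152092. All of them had H3K4me2 in ISC, GOB and ENT, and the first also had an ATOH1 peak. With H3K27ac and no DHS, they were chr7:4674405-4677351, chr3:96305468-96307525 and chr19:32561006-32562635, and the last had a DHS in Ent-Pro. With a DHS and no H3K27ac, they were chr9:65916639-65917594, chr15:103153392-103154630 and chr11:116196230-116197572. All of those 3 had H3K27ac in Ent-Pro, whereas over the whole combination 22.1% of Rbpj-/- and 19.9% of DBZ peaks did. With neither feature, they were chr5:65739139-65740592, chr8:89109040-89109823 and chr17:26339321-26341075, all with H3K4me2 in ISC, GOB and ENT. Over the whole combination, H3K4me2 was found at 39.2% and 21.2% in ISC, 58.1% and 37.3% in GOB, and 67.8% and 38.0% in ENT. The site on chr5 had H3K27ac in Ent-Pro, as did 27.9% and 19.4% of the combination. The site on chr17 had a DHS in Ent-Pro, as did 5.75% and 3.77%. Genes, exons and promoters at these positions were not read, because no annotation of this build was used.

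DHS with H3K27ac often lay at the edges of H3K4me2 peaks or between them, and DHS without H3K27ac lay more often inside them. Of the DHS with H3K27ac that touched H3K4me2, 40.3% touched 2 or more Rbpj-/- peaks (39.4 to 41.1%) and 46.8% touched 2 or more DBZ peaks (46.0 to 47.7%). Of the DHS without H3K27ac, 5.15% (4.55 to 5.83%) and 14.8% (13.9 to 15.7%) did. The centre of the DHS was inside an H3K4me2 peak for 66.6% and 70.8% of DHS with H3K27ac, and for 86.9% and 78.9% of DHS without it. DHS with both marks were also wider, at a median of 573 bp against 414 bp with H3K4me2 alone, and the part of width in this was not tested. Against H3K27ac peaks, 20.1% of DHS touched 2 or more, and 84.3% had their centre inside one.

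H3K4me2 peaks with a DHS were overlapped by ATOH1 about 3 to 4 times as often as those without, at either state of H3K27ac. Over all H3K4me2 peaks, ATOH1 overlapped 10.7% of the Rbpj-/- list and 9.07% of the DBZ list. With H3K27ac and a DHS, 3960 Rbpj-/- peaks (22.6%, 22.0 to 23.3%) and 4239 DBZ peaks (22.8%, 22.2 to 23.4%) had ATOH1. With H3K27ac and no DHS, 1835 (6.28%, 6.01 to 6.57%) and 2314 (6.66%, 6.40 to 6.92%) did. The difference was 16.4 percentage points (15.7 to 17.0) and 16.1 points (15.5 to 16.8). Without H3K27ac, ATOH1 overlapped 12.9% (11.97 to 13.9%) and 12.3% (11.5 to 13.1%) of peaks with a DHS. Where both features were missing, it overlapped 3.31% (3.0 to 3.64%) and 3.19% (3.01 to 3.39%). In every combination the shares of both libraries lay closer to each other than to those of any other combination. Both were read against the same H3K27ac, DHS and ATOH1 lists, so this closeness is not an independent repeat.

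Width and score moved with these shares, and their part was followed by length and within bins. Per Mb of H3K4me2, there were 171 and 163 ATOH1 peaks in peaks with both features and 167 and 161 in those with a DHS alone. There were 96.6 and 97.9 per Mb with H3K27ac alone and 84.1 and 85.8 per Mb with neither. On this scale, peaks with and without H3K27ac lay close together where a DHS was present. When peaks were split into quintiles by width, the share with ATOH1 was higher with a DHS than without in 5 of 5 quintiles of both libraries. With H3K27ac, the difference ran from 6.90 to 15.3 points in Rbpj-/- and from 7.04 to 13.9 points in DBZ. Without H3K27ac, it ran from 3.23 to 19.97 points and from 4.16 to 12.1 points. The same held in 5 of 5 quintiles by score. Within quintiles, unlike per Mb, peaks with a DHS had ATOH1 more often with H3K27ac than without it. This was so in 5 of 5 quintiles by width and in 5 of 5 by score of both libraries. By width, that difference ran from 2.48 to 9.46 points in Rbpj-/- and from 2.22 to 8.66 points in DBZ. Among peaks without a DHS, the share with ATOH1 was higher with H3K27ac than without it in 5 of 5 width quintiles of Rbpj-/- and in 4 of 5 of DBZ. The exception was the narrowest DBZ peaks, at 1.68% with H3K27ac against 1.86% without. When only the upper 50% of the H3K27ac, DHS and ATOH1 lists was used, the difference by DHS among peaks with H3K27ac was 7.56 and 7.31 points.

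**Figure D3:**
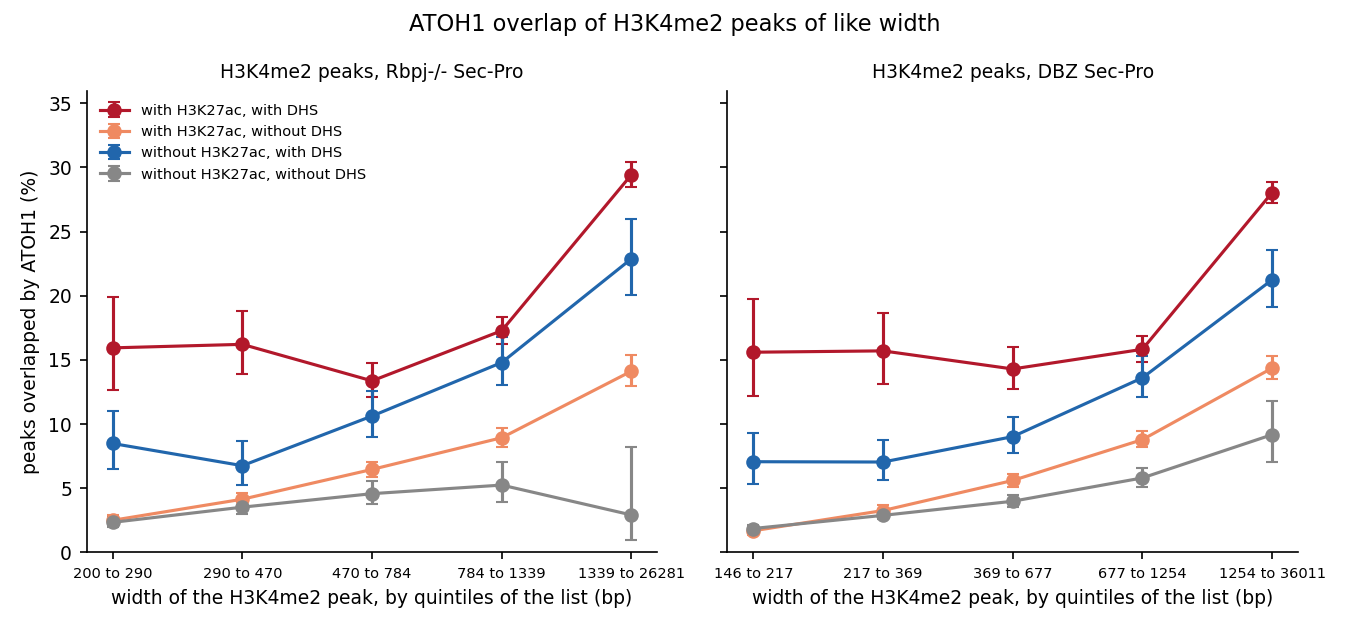
Share of Sec-Pro H3K4me2 peaks overlapped by ATOH1 (percent, with 95% counting intervals) in quintiles of the list by width in bp, for the 4 combinations, in the Rbpj-/- library (left) and the DBZ library (right). Both lines with a DHS lie above both lines without one in every quintile, and the share with H3K27ac and DHS is highest in the widest quintile, at 29.4% and 28.0%.

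The number of DHS in a peak went with ATOH1. Rbpj-/- H3K4me2 peaks with 0, 1, 2 and at least 3 DHS had ATOH1 in 5.42%, 19.1%, 37.1% and 56.1% of cases, and DBZ peaks in 4.98%, 18.8%, 35.6% and 57.2%. H3K27ac peaks followed the same order, with 4.24%, 24.1%, 43.8% and 66.1%. Median widths were also larger with more DHS, and reached 3991, 3954 and 3700 bp at 3 or more DHS, in 198, 194 and 121 peaks of these lists. The part of width in this order was not tested.

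Nearly all Sec-Pro H3K4me2 peaks with both features had H3K4me2 in GOB and in ENT, and the combinations without a DHS held most of the sites that mature cells lacked. Over the whole Rbpj-/- list, 80.9% of peaks were present in GOB and 88% in ENT, and over the DBZ list 65.5% and 69.1%. Peaks with H3K27ac and a DHS were present in GOB at 99.6% and 99.4% and in ENT at 99.6% and 99.2%. Peaks with a DHS alone were present in GOB at 97.1% and 91.5% and in ENT at 94.6% and 85.7%. Peaks with H3K27ac alone were present in GOB at 76.3% and 69.1% and in ENT at 88.2% and 79.1%. Peaks with neither were present in GOB at 58.1% and 37.3% and in ENT at 67.8% and 38.0%. H3K4me2 was found in neither GOB nor ENT at 25.4% and 51.2% of the peaks with neither feature, against 0.143% and 0.312% of those with both. These shares also moved with score. Presence in GOB was higher with a DHS than without in 5 of 5 score quintiles of both libraries, at either state of H3K27ac. With H3K27ac, it was 92.9% and 89.3% against 57.6% and 47.6% in the lowest quintile. In the highest quintile it was 100% and 99.98% against 99.6% and 99.0%. For ENT, that difference ran from -0.0097 to 17.1 points in Rbpj-/- and from 0.046 to 23.7 points in DBZ.

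The balance between the mature lineages differed by combination. Over the whole list, presence in GOB minus presence in ENT was -7.10 points in Rbpj-/- and -3.59 points in DBZ. For peaks with both features, presence in GOB minus presence in ENT was 0.02 and 0.19 points. For peaks with a DHS alone it was 2.49 points (1.88 to 3.11) and 5.82 points (5.06 to 6.59), towards GOB. For peaks with H3K27ac alone it was -11.9 points (-12.3 to -11.4) and -10.1 points (-10.5 to -9.62), towards ENT. The last held in 5 of 5 quintiles by width and in 5 of 5 by score of both libraries, from -17.5 to -0.41 points. The value for a DHS alone was at or above 0 in all of these quintiles. For peaks with neither feature the libraries differed, with -9.69 points (-10.5 to -8.84) in Rbpj-/- and -0.67 points (-1.18 to -0.15) in DBZ. The Rbpj-/- value lay below that of its whole list and the DBZ value above. The DBZ value was 1.66 points, with its sign reversed, when only the upper 50% of the other lists by score was used, and -5.90 points among the upper 50% of the DBZ peaks. The GOB and ENT lists, with 86922 and 88489 peaks, each came from 1 library.

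H3K4me2 peaks with ATOH1 were present in GOB alone more often, and in ENT alone less often, than peaks of the same combination without ATOH1, in both combinations without a DHS. With neither H3K27ac nor a DHS, peaks with ATOH1 were present in GOB and not ENT at 13.5% (10.4 to 17.2%) in Rbpj-/- and 27.7% (25.1 to 30.5%) in DBZ. The same peaks were present in ENT and not GOB at 3.55% (2.13 to 5.87%) and 4.33% (3.25 to 5.75%). Without ATOH1, 6.56% and 10.2% were present in GOB alone, against 16.9% and 11.7% in ENT alone. With H3K27ac and no DHS, 3.32% and 9.38% of peaks with ATOH1 were present in GOB alone, against 1.69% and 2.38% in ENT alone. Without ATOH1, 2.24% and 4.15% of them were present in GOB alone, against 15.0% and 15.4% in ENT alone. With both features the shares were small: 0.328% and 0.731% of peaks with ATOH1 were present in GOB alone, and 0.025% and 0.118% in ENT alone. Without ATOH1, 0.207% and 0.383% of them were present in GOB alone, and 0.273% and 0.313% in ENT alone, in the same direction but with counting intervals that overlapped for GOB alone in Rbpj-/- and for ENT alone in DBZ. With a DHS alone, 2.98% and 9.49% of peaks with ATOH1 were present in GOB alone, against 3.67% and 7.66% of those without ATOH1. The Rbpj-/- values thus went the other way, and the counting intervals overlapped in both libraries. ENT alone held 0.826% and 1.03% of those with ATOH1, against 1.13% and 2.21% without. The counts without a DHS rest on 394 and 1039 peaks with ATOH1 and neither feature, and on 1835 and 2314 with ATOH1 and H3K27ac alone.

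Peaks with ATOH1 were wider, at medians of 380 and 393 bp against 314 and 267 bp for those without ATOH1 in the combination with neither feature. Within quintiles by width, presence in GOB minus presence in ENT was higher with ATOH1 than without it in 5 of 5 quintiles of both libraries for both combinations without a DHS. The lowest difference between them was 1.95 points in Rbpj-/- and 5.43 points in DBZ with H3K27ac alone. With neither feature it was 3.0 points in Rbpj-/- and 21.1 points in DBZ. The widest Rbpj-/- quintile with neither feature held only 3 peaks with ATOH1. For peaks with both features the direction was the same in 4 of 5 Rbpj-/- and 5 of 5 DBZ quintiles, and for peaks with a DHS alone in 2 of 5 and 5 of 5. Presence in GOB alone did not follow in every quintile without a DHS. Among Rbpj-/- peaks with H3K27ac alone, it was 0.21% with ATOH1 against 0.52% without in the fourth quintile by width. In the widest quintile it was 0% against 0.15%. Presence in ENT alone was lower with ATOH1 there, at 0.84% against 6.37% and at 0.22% against 2.32%.

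**Figure D4:**
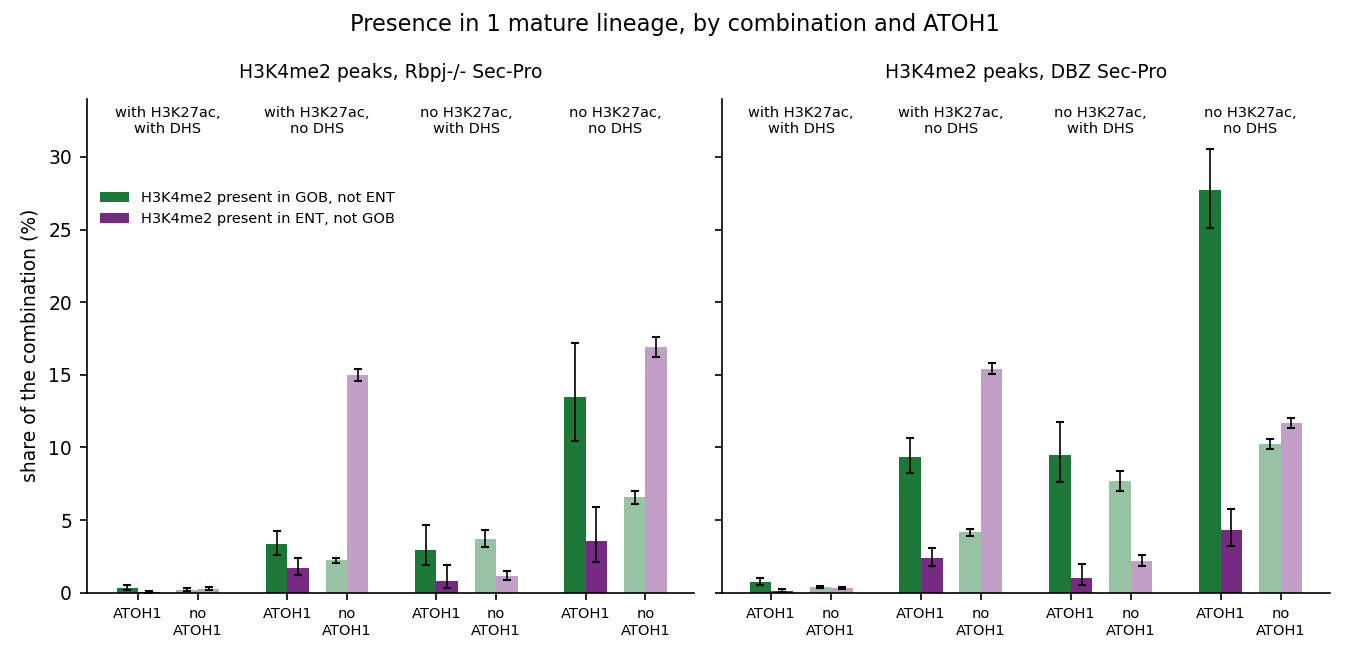
Share of each combination of Sec-Pro H3K4me2 peaks (percent, with 95% counting intervals) with H3K4me2 in GOB and not ENT (green) and in ENT and not GOB (purple), split into peaks with ATOH1 (full colour) and without ATOH1 (pale), in the Rbpj-/- library (left) and the DBZ library (right). Without ATOH1 and without a DHS, the ENT bar is the taller one, at 15.0% to 16.9% in Rbpj-/- and 11.7% to 15.4% in DBZ, and with ATOH1 the GOB bar is.

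H3K27ac peaks seldom had a DHS without also having H3K4me2. Of the 74483 H3K27ac peaks, 15481 (20.8%, 20.5 to 21.1%) had H3K4me2 and a DHS, 38500 (51.7%, 51.3 to 52.0%) had H3K4me2 alone, 225 (0.302%, 0.265 to 0.344%) had a DHS alone and 20277 (27.2%, 26.9 to 27.5%) had neither. Median widths were 1090, 533, 337 and 296 bp in that order, and median score percentiles 85.0, 52.2, 32.4 and 26.1. H3K27ac without H3K4me2 in either library made up 27.5% of the list (27.2 to 27.8%), 8.64% of its upper 50% by score and 42.0% if H3K4me2 was required in both libraries. These peaks lay near H3K4me2: without a DHS, the median distance to the nearest H3K4me2 peak was 1070 bp, and 32.9% lay within 500 bp. If peaks up to 500 bp apart counted as overlapping, 18.5% of the list lacked H3K4me2.

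ATOH1 overlapped 8.74% of H3K27ac peaks as a whole. It overlapped 25.7% (25.1 to 26.4%) of those with H3K4me2 and a DHS, 5.83% (5.60 to 6.07%) with H3K4me2 alone, 14.2% (10.3 to 19.4%) with a DHS alone and 1.21% (1.07 to 1.37%) with neither. Per Mb of H3K27ac, there were 379 ATOH1 peaks with a DHS alone, 220 with H3K4me2 and a DHS, 81.3 with H3K4me2 alone and 33.6 with neither. The first value rests on 225 short peaks. H3K27ac peaks with H3K4me2 had more ATOH1 when a DHS was present in 5 of 5 quintiles by width, by 9.21 to 22.8 points.

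GOB H3K4me2 was present at 63.6% of H3K27ac peaks and ENT H3K4me2 at 71.1%. With H3K4me2 and a DHS in Sec-Pro, GOB had 99.4% and ENT 99.2% of them. With H3K4me2 alone, GOB had 70.3% and ENT 80.3%. With a DHS alone, GOB had 55.1% and ENT 40.4%. With neither, GOB had 23.5% and ENT 32.3%. For H3K27ac peaks without a DHS, presence in GOB minus presence in ENT was -9.95 points with H3K4me2 and -8.89 points without it, towards ENT in both. Ent-Pro had H3K27ac at 49.1% of the peaks with neither, below the 79.8% of the whole list and the 91.5% of peaks with H3K4me2.

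The highest-scoring H3K27ac peaks without Sec-Pro H3K4me2 and with a DHS were chr17:26852545-26853253, chr16:92039262-92040567 and chr2:39081419-39081952. All of them had H3K4me2 in GOB and ENT. Those without H3K4me2 and without a DHS were chr6:145053979-145055937, chr17:74802176-74803404 and chr2:136663881-136664920. The last of these had H3K4me2 in neither GOB nor ENT and H3K27ac in Ent-Pro.

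DHS of Sec-Pro fell largely into those with both marks and those with no mark. Both marks were found at 13769 of 31980 DHS (43.1%, 42.5 to 43.6%), H3K4me2 alone at 5596 (17.5%, 17.1 to 17.9%), H3K27ac alone at 308 (0.963%, 0.862 to 1.08%) and no mark at 12307 (38.5%, 38.0 to 39.0%). DHS with both marks had a median width of 573 bp and a median score percentile of 76.9. H3K4me2 alone went with 414 bp and a percentile of 55.1, H3K27ac alone with 251.5 bp and 27.6, and no mark with 260 bp and 25.0. The share with no mark was 76.8% in the lowest decile of DHS by score, 28.3% in the sixth decile, 7.10% in the seventh and 0.03% in the highest. H3K4me2 was already at 92.3% of DHS in the seventh decile, where H3K27ac was at 55.0%. Among the upper 50% of DHS by score, 7.49% had no mark.

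Few DHS without a mark lay right beside a marked region. Their median distance was 8521 bp to the nearest H3K4me2 peak and 16978 bp to the nearest H3K27ac peak, and 5.97% lay within 500 bp of H3K4me2. DHS with H3K4me2 alone lay farther from H3K27ac, at a median of 22810 bp. The distance that randomly placed sites would have was not computed. Of the 308 DHS with H3K27ac alone, 52.6% lay within 500 bp of H3K4me2. A DHS of Ent-Pro was found at 85.4% of all Sec-Pro DHS. It was found at 67.9% of the unmarked DHS, at 97.8% of DHS with both marks and at 93.9% of those with H3K4me2 alone.

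**Figure D5:**
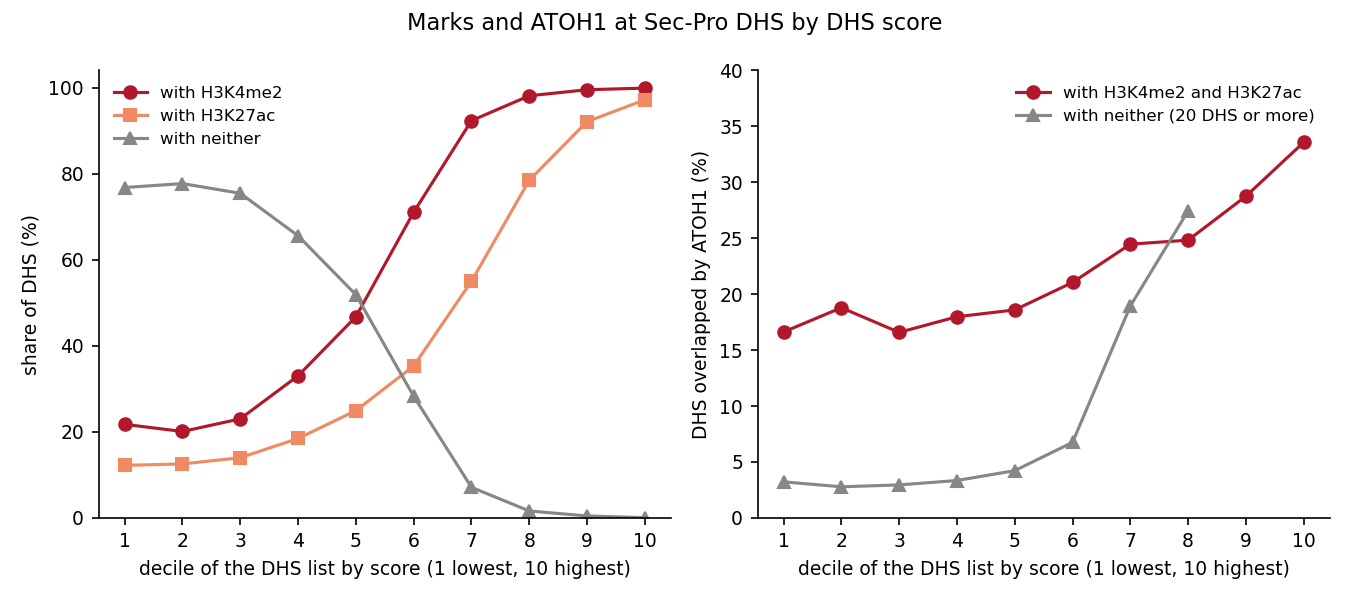
Left, share of Sec-Pro DHS with H3K4me2, with H3K27ac and with neither (percent), by decile of the DHS list by score. Right, share of DHS overlapped by ATOH1 (percent) for DHS with both marks and with neither, where the deciles with under 20 unmarked DHS are not drawn. The unmarked share is 76.8% in the lowest decile and 0.03% in the highest, and ATOH1 at DHS with both marks is 16.6% in the lowest and 33.6% in the highest.

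ATOH1 overlapped 15.1% of all DHS, 26.1% (25.4 to 26.8%) of those with both marks, 12.9% (12.1 to 13.8%) of those with H3K4me2 alone, 12.7% (9.40 to 16.8%) of those with H3K27ac alone and 3.92% (3.60 to 4.28%) of those with no mark. DHS with both marks had more ATOH1 than DHS with no mark in 5 of 5 quintiles by width, by 13.0 to 31.8 points. By score they had more in 4 of 5 quintiles. In the top score quintile the unmarked DHS had 40% (19.8 to 64.3%), but numbered only 15, against 31.2% of those with both marks. The next quintile gave 24.7% for DHS with both marks and 20.5% for the 278 with no mark. By decile, DHS with both marks had more ATOH1 up to the seventh, at 24.5% against 18.9% of 227 unmarked DHS. In the eighth they had 24.8% against 27.5% of 51 unmarked DHS, and the highest deciles held 14 and 1 unmarked DHS. H3K27ac went with ATOH1 among DHS with H3K4me2 in 5 of 5 quintiles by score, by 1.27 to 11.8 points.

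H3K4me2 of mature cells was found at 62.7% of DHS in GOB and at 59.3% in ENT. DHS with both marks had it at 99.3% in GOB and 99.0% in ENT. DHS with H3K4me2 alone had it at 91.3% in GOB and 85.1% in ENT, a difference of 6.24 points (5.42 to 7.06). DHS with no mark in Sec-Pro had it at 8.92% in GOB and 3.47% in ENT, a difference of 5.45 points (4.99 to 5.91). GOB alone held H3K4me2 at 15.7% of the 483 unmarked DHS with ATOH1 and at 5.86% of the 11824 without ATOH1, whereas ENT alone held it at 1.24% and 0.778%.

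The highest-scoring unmarked DHS were chr3:5860497-5860980, chr11:3093002-3093629 and chr5:147072421-147073065. All of them had an ATOH1 peak, a DHS in Ent-Pro and H3K4me2 in GOB and ENT. Those with H3K27ac alone were chr15:82176167-82176732, chr11:3102170-3103175 and chr12:56180953-56181373, and none of these had an ATOH1 peak.

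Read from the ATOH1 list, 3668 of 15240 ATOH1 peaks (24.1%) lay at all 3 features, and 5096 (33.4%) at none of them. A DHS was found at 33.9% of ATOH1 peaks, H3K27ac at 47.7% and H3K4me2 of either library at 59.9%. ATOH1 peaks with H3K4me2 and H3K27ac but no DHS numbered 3100 (20.3%). Their median score percentile was 61.0, against 52.0 for ATOH1 peaks at all 3 features and 37.5 for those at none.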

How the data were processed

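Peaks of H3K4me2, H3K27ac and ATOH1 from chromatin immunoprecipitation sequencing and DHS from DNase-seq were read for 12 of 15 samples. Input DNA (3 samples) was not used here. The submitters' processing notes name CASAVA 1.7, Bowtie 0.12.7, MACS2 and build mm9. Parameters, and any use of input as background, are not stated there. The authors deposited 1 peak list per library, with the position and a score for each peak. The files do not name this score, which served only to rank peaks within a list.

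Overlaps of at least 1 bp were counted in Python 3.11.15 with NumPy 2.4.6, pandas 2.3.3 and SciPy 1.17.1. Plots used matplotlib 3.10.9. The counting was tested on simulated data. Shares have Wilson 95% intervals, differences between sets of peaks Newcombe intervals and differences within a set paired Wald intervals. No test over sites was run. Quintiles and deciles hold equal numbers of peaks of a list, by width or score. Presence in GOB or ENT alone means a peak in that mature list and none in the other.

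Regions were named by a rule: per combination of H3K4me2, the 3 DBZ peaks with the highest lower percentile of both libraries among sites of the same combination, and per combination without H3K4me2 the 3 highest-scoring H3K27ac peaks and DHS. The members, classes and lists were chosen with earlier results of these data known. The planned gene lists and cell type markers were not read, because the only gene table belongs to GRCm38.p6 and no coordinates were converted.

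Alternatives were an overlap of 50% of the shorter peak, peaks up to 500 bp apart, the central 500 bp of the marks, the upper 50% of the classed or of the other lists by score, merging within 1 kb, autosomes only, the central 200 bp of ATOH1 peaks, and leaving out either H3K4me2 library. A DBZ list reduced to the number of Rbpj-/- peaks, or to peaks of at least 200 bp, was chosen after seeing the data.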

Additional observations from a re-analysis of the deposited data

How the results depend on the processing

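Of 86 alternative values for 10 results, 17 stayed within the counting interval, 68 moved outside it without a change of sign and 1 changed sign. Values are given for Rbpj-/- and then DBZ peaks. H3K4me2 peaks with H3K27ac and a DHS (27.6% and 20.2%) became 13.5% and 10.1% with 50% overlap, 31.9% and 23.6% up to 500 bp apart, 11.7% and 7.85% with central 500 bp, 51.6% and 38.3% in the upper 50% of the classed list, 22.9% and 16.6% with the upper 50% of the other lists, and 31.9% and 23.7% after merging within 1 kb. H3K4me2 peaks with neither (18.8% and 35.3%) became, in the same order, 23.2% and 40.9%, 13.5% and 27.3%, 31.3% and 43.8%, 5.39% and 15.9%, 33.2% and 49.9%, and 17.3% and 32.7%. H3K27ac without H3K4me2 (27.5%) became 30.5%, 18.5%, 34.4%, 8.64%, 46.4% and 19.9%. DHS with no mark (38.5%) became 42.9%, 35.6%, 42.9%, 7.49%, 43.5% and 39.0%. With H3K4me2 required in both libraries these were 42.0% and 42.0%. Leaving out either H3K4me2 library gave 30.1% without Rbpj-/- and 39.5% without DBZ for H3K27ac without H3K4me2, and 38.8% and 41.7% for DHS with no mark.

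The ATOH1 difference by DHS among peaks with H3K27ac (16.4 and 16.1 points) became, in the same order, 23.6 and 22.3, 19.95 and 20.4, 13.6 and 12.3, 13.3 and 13.0, 7.56 and 7.31, and 24.1 and 24.1 points. GOB minus ENT presence of Rbpj-/- peaks with neither feature (-9.69 points) became -8.71 points up to 500 bp apart, -6.16 in the upper 50% of the classed list and -3.04 with the upper 50% of the other lists. For DBZ peaks (-0.67 points) it became -2.16 with 50% overlap, -0.0079 up to 500 bp apart, -2.34 with central 500 bp, -5.90 in the upper 50% of the classed list, 1.66 (reversed) with the upper 50% of the other lists, and -2.32 after merging. The cause of these moves was not tested.

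With the DBZ list reduced to the number of Rbpj-/- peaks, chosen after seeing the data, the DBZ values were 28.8% with both features, 24.1% with neither, 14.5 points for ATOH1 and -3.15 points for GOB minus ENT. With DBZ peaks of at least 200 bp, likewise added, they were 23.9% with both, 29.5% with neither and -1.60 points for GOB minus ENT. No paired analysis was possible because each comparison rests on 1 library per assay. Depth is unknown, so absence from a list is a limit of detection for every combination named "without".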

Other observations

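The combinations also differed in the lists of enterocyte progenitors and stem cells, which the classes did not use. H3K4me2 was found in both Ent-Pro libraries at 85.0% of all Rbpj-/- and 62.6% of all DBZ peaks of Sec-Pro, and in ISC at 64.3% and 48.0%. Sec-Pro H3K4me2 peaks with H3K27ac and a DHS had H3K4me2 in both Ent-Pro libraries at 98.8% of Rbpj-/- and 97.3% of DBZ peaks, and in ISC at 93.6% and 91.1%. Those with H3K27ac alone had it in both Ent-Pro libraries at 85.5% and 73.4% and in ISC at 56.1% and 48.2%, so that only some of these values stood apart from those of the whole list. Those with a DHS alone had it in both Ent-Pro libraries at 87.5% and 75.2% and in ISC at 70.1% and 58.1%. Those with neither had it in both Ent-Pro libraries at 62.1% and 28.7% and in ISC at 39.2% and 21.2%. Among peaks of like score the ISC shares lay closer. With H3K27ac, the ISC share with a DHS minus that without ran from -0.67 to 5.67 points over Rbpj-/- score quintiles, higher in 4 of 5. In DBZ it ran from -9.38 to 0.73 points, higher in 2 of 5. By width it was higher in 5 of 5 Rbpj-/- and 4 of 5 DBZ quintiles. The Ent-Pro shares were not split in this way. The state in Ent-Pro was mostly that of Sec-Pro in the combinations with 1 feature. Ent-Pro H3K27ac was found at 94.0% and 91.5% of peaks with H3K27ac alone and at 22.1% and 19.9% of peaks with a DHS alone. Over all H3K4me2 peaks it was found at 77.6% and 62.6%. Ent-Pro DHS was found at 9.15% and 8.52% of peaks with H3K27ac alone and at 97.1% and 95.6% of peaks with a DHS alone. Over all H3K4me2 peaks it was found at 39.8% and 31.0%. The lists of ISC and of Ent-Pro differ from those of Sec-Pro in genotype and preparation.

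The X chromosome had another mix of combinations than the autosomes. Of its 1280 Rbpj-/- and 1816 DBZ H3K4me2 peaks, 11.8% and 11.1% had a DHS alone, against medians of 6.97% and 6.81% over the 19 autosomes and maxima of 8.87% and 8.37%. H3K27ac alone was found at 34.5% and 28.9% of X peaks, below the lowest autosome at 42.1% and 34.9%. Both features were found at 32.5% and 26.3% of X peaks, above the highest autosome at 31.0% and 24.1%. The labels give no sex of the mice, and the cause was not tested.

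When overlapping peaks of all 4 Sec-Pro lists were merged, 109154 regions resulted. Regions with both marks and a DHS numbered 12687 (11.6%) but held 37.9% of the merged length, and 32.3% of them had ATOH1. Regions with H3K4me2 alone numbered 32161 (29.5%), held 12.5% of the length and had ATOH1 in 3.18% of cases. Median widths were 2598 bp with all features and 281 bp with H3K4me2 alone, and the part of width in this was not tested. The share with ATOH1 over all merged regions was not computed.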
